A study of Mus musculus with 4 samples.

Results

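The 26S proteasome is the protease that degrades proteins tagged with ubiquitin. Its 20S core is a barrel of outer rings of alpha subunits, which gate the entry, around inner rings of beta subunits, 3 of which (Psmb5, Psmb6 and Psmb7) carry the standing peptidase sites. A 19S cap with 6 ATPases recognises, unfolds and feeds in the substrate, and other activators can take its place. In heart muscle the proteasome renews sarcomere and other proteins and removes damaged ones. The genes described here are those whose symbol starts with Psma, Psmb, Psmc, Psmd, Psme or Psmg, without Psmb8, Psmb9 and Psmb10, the beta subunits that interferon induces. This rule, which goes by symbol alone, took 46 of the 21552 genes in the count table. By role they are 8 alpha and 8 beta genes, 6 cap ATPases, 11 other cap genes, 4 activators, 7 assembly factors (Psmg1 to Psmg4, Psmd5, Psmd9 and Psmd10) and 2 further genes with a matching symbol, Psmc3ip, a recombination factor of meiosis, and Psme2b, a copy of Psme2.

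Read counts came from polyadenylated heart RNA of C57BL/6 mice, 2 infarcted and 2 uninjured, with 1 library from each. The left anterior descending coronary artery had been ligated permanently, and RNA was taken from the remote area, away from the infarct, after 7 days. The uninjured hearts carry the same area label, and the labels state neither a sham operation nor age or pooling. Values are CPM, read counts relative to TMM-scaled library sizes, and a gene is called higher or lower at a Benjamini-Hochberg adjusted p below 0.05 in edgeR's quasi-likelihood test over all 13905 genes that passed its filter on low counts. With 2 mice a group, p-values rest on the spread between these 4 libraries, and the labels do not say whether preparation was shared.

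Library totals ranged from 35715115 to 70885393 counts. Proteasome genes took 0.234% and 0.266% of all counts in infarcted replicates 1 and 2, against 0.233% and 0.286% in uninjured replicates 1 and 2. These shares overlap between the groups, but all counts include those of mitochondrially encoded genes, whose part differed between libraries. Such genes took 42.0% and 36.7% in infarcted replicates 1 and 2, against 48.4% and 41.4% in uninjured replicates 1 and 2. With them left out of the edgeR fit, 14 members were called lower, and 14.5% of all genes. Markers of heart muscle cells were abundant in all libraries. Markers of atrial muscle were high in infarcted replicate 2, where 6 of them summed to 2011 CPM against 295 CPM in infarcted replicate 1. Their sums were 88.8 and 49.5 CPM in uninjured replicates 1 and 2. Nppa alone had 294 and 1456 CPM in infarcted replicates 1 and 2, against 86.9 and 46.7 CPM in uninjured replicates 1 and 2. In infarcted replicates 1 and 2 Myl4 had 1.34 and 361 CPM, and Myl7 had 0.080 and 132 CPM. The counts of proteasome genes called lower are given without infarcted replicate 2 as well.

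Per kilobase of transcript, most core and cap genes lay close together. In uninjured hearts the alpha genes ran up to 77.9 CPM per kb for Psma6, the beta genes up to 112 for Psmb6, the ATPases between 35.0 for Psmc6 and 97.9 for Psmc3, and the other cap genes between 19.8 for Psmd14, the deubiquitinase of the cap, and 60.2 for Psmd4, a ubiquitin receptor. The assembly factors were lower, between 3.19 for Psmd5 and 15.9 for Psmg2. Psma8, an alpha subunit of the testis, and Psmb11, the beta subunit of the thymus, were near 0, at 0.219 and 0.0342 CPM per kb in infarcted and 0.417 and 0.0415 in uninjured hearts. The genes Psma5, Psmb3 and Psme2 were also far below their partners, at 0.314, 5.56 and 0.423 CPM per kb in infarcted and 0.360, 8.76 and 0.722 in uninjured hearts. RefSeq lists a pseudogene of Psma5 and the copy Psme2b of Psme2, as well as pseudogenes of Psmb5, Psmb6 and Psmb7. How reads shared with such copies were counted is not stated, so the levels of these genes are uncertain.

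**Figure D1:**
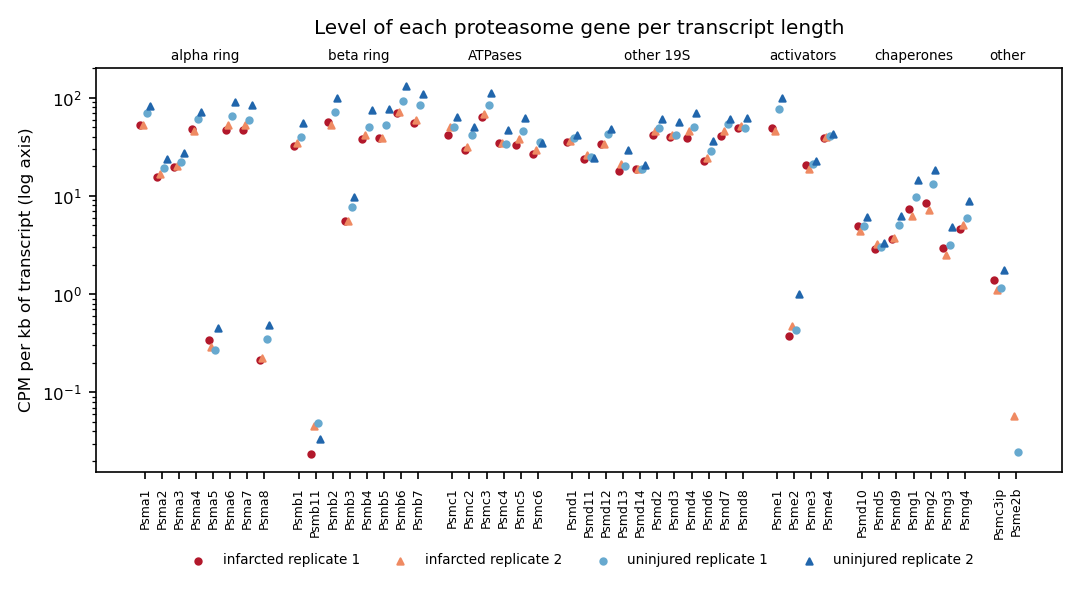
Level of each proteasome gene in CPM per kb of its principal transcript (log axis), with infarcted libraries left of uninjured ones for each gene and genes grouped by role. Psma5, Psma8, Psmb11, Psme2, Psme2b and Psmc3ip are the genes with a mean below 2 CPM per kb in both groups, and values of 0 for Psme2b are not drawn.

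In the remote area of infarcted hearts 13 of 44 proteasome genes tested fell, 0 rose and 31 were not called. That is 29.5% lower, where 14.6% of all genes tested were called lower and 18.3% higher. The unadjusted p was below 0.05 for 23 of the 44 members, and for 5950 of all 13905 genes tested. The median log2 fold change was -0.50 for the members and 0.02 for all genes tested, and 43 members had a negative value. The members together made up 2160 and 2267 CPM in infarcted replicates 1 and 2, against 2620 and 3228 CPM in uninjured replicates 1 and 2. On the same scale all genes tested summed to 924390 and 851100 CPM in infarcted replicates 1 and 2. Their sums were 1126000 and 1128800 CPM in uninjured replicates 1 and 2. Both infarcted libraries lay below both uninjured ones in 34 of the 44 members, which 33.8% of all genes tested also did, and in none of the members above, which 36.2% of all genes did. Psmb11, with 5 to 10 counts a library, and Psme2b, with 0 to 2, did not pass the filter.

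**Figure D2:**
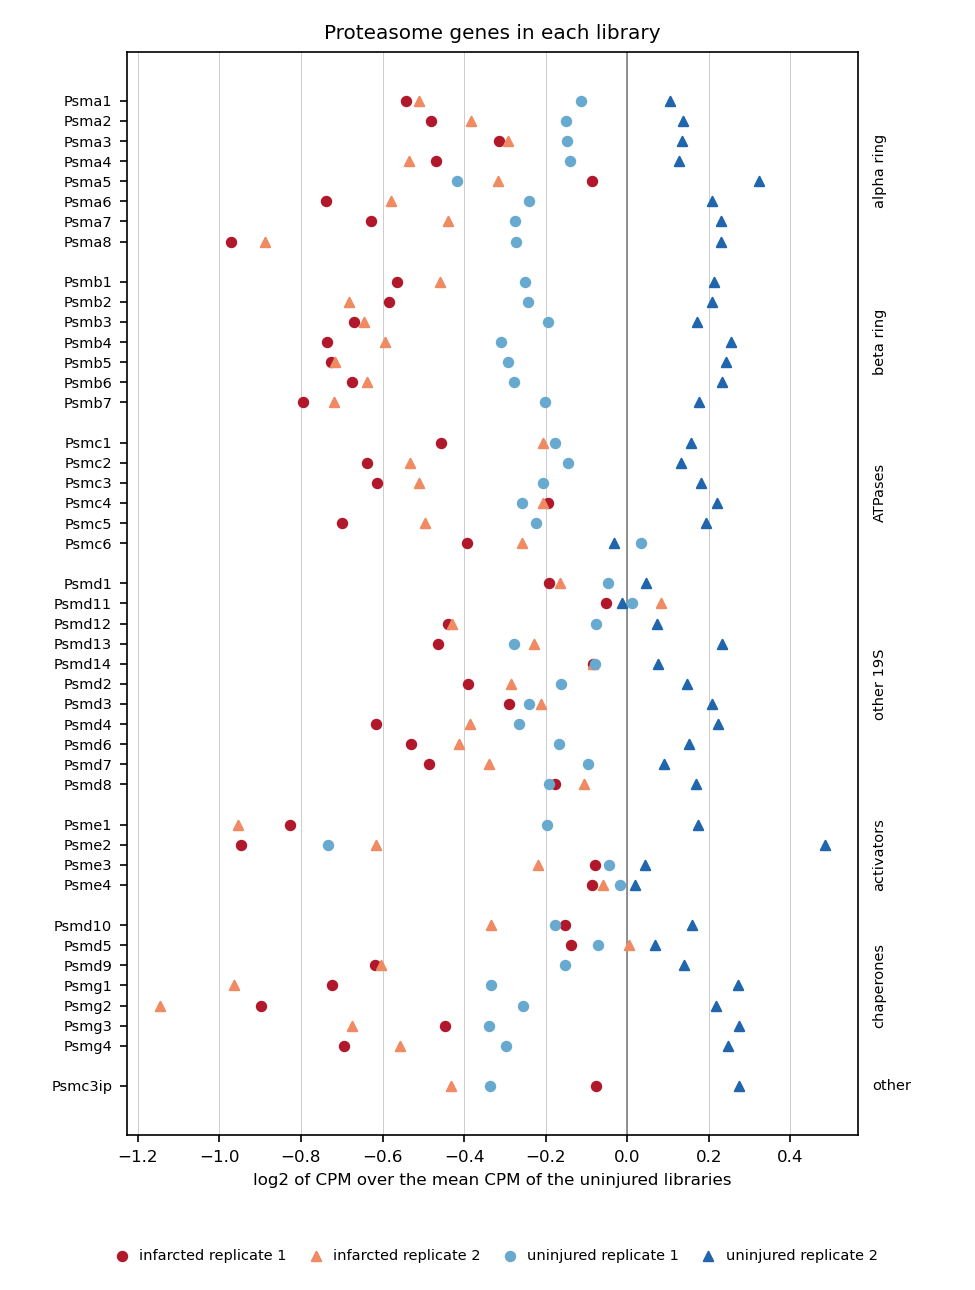
Each proteasome gene tested (rows, grouped by role) in each library (points), as the log2 of its CPM over the mean CPM of the uninjured libraries. Uninjured replicate 2 is the higher uninjured library in 42 of 44 genes, and the infarcted libraries lie left of both uninjured ones in 34.

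The beta ring held the most calls. Of 7 members tested 5 fell, where 14.6% of all genes did, with log2 fold changes of all 7 between -0.76 and -0.51 and a median of -0.66. The ring's median transcript had 899 nucleotides, a length class in which 38.6% of all genes were called lower, and with the length trend removed 0 of the 7 were called. Psmb7, which carries the trypsin-like site, had 64.6 and 68.1 CPM in infarcted hearts, against 97.6 and 126.7 CPM in uninjured hearts. It was 1.69-fold lower, a log2 fold change of -0.76 ± 0.20 (SE, adjusted p = 0.0108). Psmb5, which carries the chymotrypsin-like site and is the target of bortezomib, had 35.1 and 35.4 CPM in infarcted hearts, against 47.4 and 68.7 CPM in uninjured hearts (-0.72 ± 0.21, adjusted p = 0.0174). Psmb6, with the caspase-like site, had 55.7 and 57.1 CPM in infarcted hearts, against 73.3 and 104.6 CPM in uninjured hearts (-0.66 ± 0.21, adjusted p = 0.0264). All 3 catalytic genes thus fell, with both infarcted libraries below both uninjured ones, as in 33.8% of all genes. In each the infarcted libraries differed far less from each other than the uninjured ones. Psmb4 and Psmb2, structural beta subunits, fell by 0.66 ± 0.21 and 0.63 ± 0.20, while Psmb3 and Psmb1 were not called, at -0.66 ± 0.25 and -0.51 ± 0.20 (adjusted p = 0.0546 and 0.0688).

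Among beta ring members with a promoter listed, Psmb5 and Psmb6 are those with a match to the core of the antioxidant response element. This motif is read by the transcription factor NFE2L1, which drives proteasome genes when proteasome activity is short. The bases before the start of Psmb5 are shown for that match, beside those of Psme1, the called member with the smallest p, which has none. Both come from RefSeq on GRCm38.p6, read in the direction of the gene, and capitals mark TGACNNNGC or CCAAT on either strand. Psmb5 lies on the minus strand at chr14:54617996-54618245 and Psme1 on the plus strand at chr14:55578244-55578493.
Psmb5: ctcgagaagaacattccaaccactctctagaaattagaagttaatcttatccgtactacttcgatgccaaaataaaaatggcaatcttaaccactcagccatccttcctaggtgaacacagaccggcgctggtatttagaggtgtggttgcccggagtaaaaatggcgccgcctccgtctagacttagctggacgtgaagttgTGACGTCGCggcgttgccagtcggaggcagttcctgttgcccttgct
Psme1: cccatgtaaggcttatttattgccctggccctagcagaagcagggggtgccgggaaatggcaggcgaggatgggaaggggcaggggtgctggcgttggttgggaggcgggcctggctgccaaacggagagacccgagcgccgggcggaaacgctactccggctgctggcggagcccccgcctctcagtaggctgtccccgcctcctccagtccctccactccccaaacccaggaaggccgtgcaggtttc
The match of Psmb5 lies 47 to 39 bases before the start. Promoter windows, from 250 bases before to 50 after the start, were listed for 38 of the 46 members, with 41 windows in all. TGACNNNGC was found on either strand in 6 of the 41, or 14.6%, and in 12.4% of all 32851 promoters. Of the 13 members that fell, 10 had a promoter listed, and of these Psmb5, Psmb6 and Psmd9 had the motif. Of 28 listed members that were not called or not tested, Psmc6, Psmd12 and Psme4 had it. CCAAT, the box bound by NF-Y, was in 34.1% of member promoters and 37.4% of all. A match is a description of letters and not a site.

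Of the 8 alpha genes, Psma6 and Psma1 fell and the others were not called, where 14.6% of all genes were called lower. Their median log2 fold change was -0.51. Their median transcript had 1220 nucleotides, a length class in which 30.7% of all genes were called lower. With the length trend removed 0 of the 8 were called. Psma6 had 48.7 and 54.4 CPM in infarcted hearts, against 68.7 and 93.7 CPM in uninjured hearts, a log2 fold change of -0.66 ± 0.20 (adjusted p = 0.0241). Psma1 had 62.8 and 64.1 CPM in infarcted hearts, against 84.4 and 98.3 CPM in uninjured hearts (-0.53 ± 0.19, adjusted p = 0.0443). Psma4 came close to the threshold, with 55.7 and 53.2 CPM in infarcted hearts, against 70.0 and 84.2 CPM in uninjured hearts (-0.50 ± 0.19, adjusted p = 0.0543). The infarcted libraries lay below both uninjured ones in 7 of the 8, as in 33.8% of all genes. The exception was Psma5, with 15 to 35 counts a library, at -0.21 ± 0.49. Psma7, Psma2 and Psma3 had log2 fold changes of -0.53, -0.43 and -0.30, and Psma8, on 16 to 52 counts, one of -0.93 ± 0.46 (adjusted p = 0.142).

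Of 17 cap genes 2 were called lower, or 11.8%, which is below the 14.6% of all genes. Psmc5 and Psmc2 fell among 6 ATPases (median -0.44), and 0 of 11 other cap genes were called (median -0.34). The unadjusted p was below 0.05 in 4 of these 11, and in 5950 of all 13905 genes tested. Psmc2 had 52.6 and 56.6 CPM in infarcted hearts, against 74.0 and 89.7 CPM in uninjured hearts (-0.58 ± 0.19, adjusted p = 0.03005). Psmc5 had 43.9 and 50.5 CPM in infarcted hearts, against 61.0 and 81.5 CPM in uninjured hearts (-0.59 ± 0.20, adjusted p = 0.0360). Psmc3 had 105 and 112 CPM in infarcted hearts, against 139 and 182 CPM in uninjured hearts, and just missed the threshold (-0.56 ± 0.21, adjusted p = 0.0505). Both infarcted libraries were below both uninjured ones in these 3, as in 33.8% of all genes. The ATPases Psmc1, Psmc6 and Psmc4 had log2 fold changes of -0.33, -0.32 and -0.20.

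Among the other cap genes the ubiquitin receptor Psmd4 had 52.3 and 61.4 CPM in infarcted hearts, against 66.7 and 93.6 CPM in uninjured hearts (-0.50 ± 0.21, adjusted p = 0.0841). Psmd6 and Psmd12, scaffold subunits of the lid, were at -0.47 ± 0.19 and -0.43 ± 0.18 (adjusted p = 0.0757 and 0.0858). Psmd6 had 31.1 and 33.8 CPM in infarcted hearts, against 40.0 and 49.9 CPM in uninjured hearts. Psmd12 had 64.0 and 64.4 CPM in infarcted hearts, against 82.3 and 91.2 CPM in uninjured hearts. In each of the 3 both infarcted libraries lay below both uninjured ones, as in 33.8% of all genes, yet none passed. At the other end was Psmd11, a lid scaffold known in worms and human cells as a limiting subunit, with 67.5 and 74.0 CPM in infarcted hearts, against 70.6 and 69.3 CPM in uninjured hearts. It is the one member with a log2 fold change above 0, at 0.02 ± 0.18, and its groups overlap. The deubiquitinase Psmd14 was at -0.08 ± 0.19, Psmd8 at -0.14 ± 0.19 and the large base scaffold subunits Psmd1 and Psmd2 at -0.18 ± 0.19 and -0.34 ± 0.20. Psmd7, Psmd13 and Psmd3 had values of -0.41, -0.34 and -0.25. As summed levels, the core made up 621 and 647 CPM in infarcted replicates 1 and 2, against 814 and 1078 CPM in uninjured replicates 1 and 2. The cap made up 1119 and 1208 CPM in infarcted replicates 1 and 2, against 1329 and 1618 CPM in uninjured replicates 1 and 2. On this scale the sum of all genes tested was also lower in both infarcted libraries. The median transcript had 1165 nucleotides in the core and 1636 in the cap. With the length trend removed the median log2 fold changes were -0.20 for the core and -0.15 for the cap. In that fit 0 genes of either were called, where 13.7% of all genes were called lower. Whether core and cap differed in their change was not tested.

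Of the 4 activators only Psme1 fell, where 14.6% of all genes were called lower. Psme1 encodes the alpha subunit of PA28, a ring that opens the core without ATP and that interferon induces. It had 55.3 and 50.7 CPM in infarcted hearts, against 85.6 and 110.6 CPM in uninjured hearts, and was 1.85-fold lower (-0.89 ± 0.20, adjusted p = 0.00434), the smallest p among the members. Its partner Psme2, on 18 to 61 counts, had 0.360 and 0.453 CPM in infarcted hearts, against 0.418 and 0.972 CPM in uninjured hearts (-0.79 ± 0.51, adjusted p = 0.257), with overlapping groups. Psme3, which forms a nuclear PA28 ring, had 55.5 and 50.4 CPM in infarcted hearts, against 56.9 and 60.4 CPM in uninjured hearts (-0.15 ± 0.18, adjusted p = 0.565). Psme4, the large activator PA200, had the highest CPM of the members, 255.4 and 260.2 in infarcted hearts, against 267.6 and 274.4 in uninjured hearts (-0.07 ± 0.20, adjusted p = 0.816). Psme3 and Psme4 thus lay near equal in the groups on this scale, while the infarcted libraries of Psme1 lay well below the uninjured ones. The principal transcripts of Psme1, Psme3 and Psme4 have 1112, 2664 and 6491 nucleotides. With the length trend removed their log2 fold changes were -0.46 ± 0.14, -0.13 ± 0.14 and -0.36 ± 0.16 (adjusted p = 0.0411, 0.501 and 0.126). The difference between the activators was not tested.

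The assembly factors held the largest change. Psmg2, which pairs with Psmg1 to build the alpha ring, had 9.06 and 7.63 CPM in infarcted hearts, against 14.1 and 19.6 CPM in uninjured hearts. It was 2.02-fold lower (-1.02 ± 0.23, adjusted p = 0.00458). Psmg1 had 7.68 and 6.51 CPM in infarcted hearts, against 10.1 and 15.3 CPM in uninjured hearts (-0.84 ± 0.25, adjusted p = 0.0190), so both partners fell. Psmd9, a chaperone of the cap base, had 9.50 and 9.58 CPM in infarcted hearts, against 13.1 and 16.04 CPM in uninjured hearts (-0.61 ± 0.21, adjusted p = 0.0393). The second alpha ring pair, Psmg3 and Psmg4, was not called, at -0.56 ± 0.31 and -0.63 ± 0.29 (adjusted p = 0.187 and 0.119). The base chaperones Psmd10 and Psmd5 were at -0.24 ± 0.23 and -0.07 ± 0.20, and Psmc3ip, which is no proteasome gene, at -0.25 ± 0.36. The count is thus 3 of 7 assembly factors lower, where 14.6% of all genes were. Their median transcript had 1059 nucleotides, a length class in which 30.7% of all genes were called lower. With the length trend removed 2 of the 7 were called, where 13.7% of all genes were called lower.

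**Figure D3:**
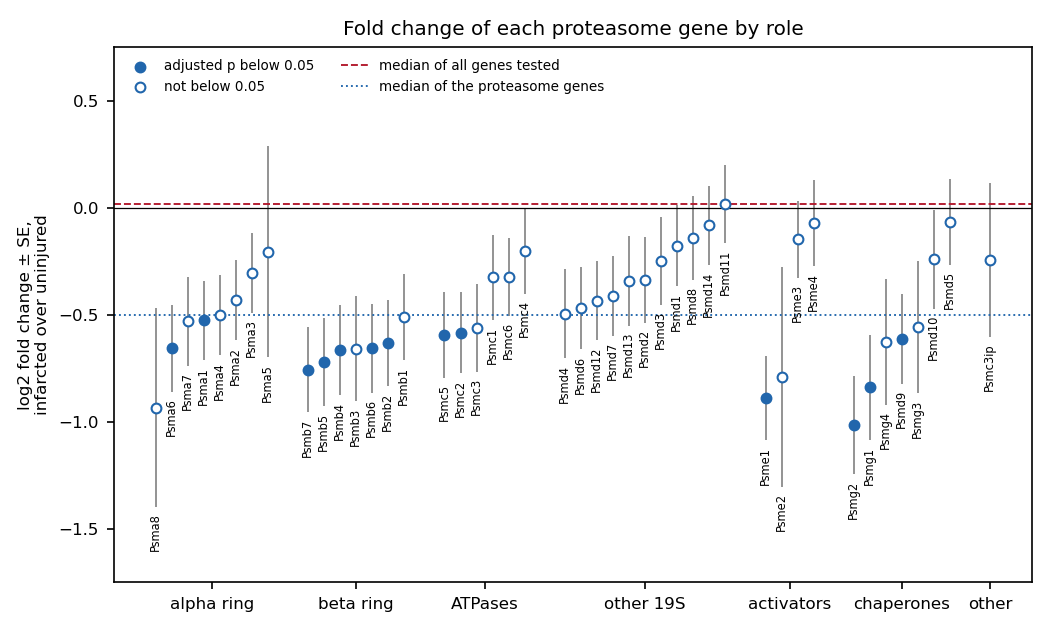
Log2 fold change of each proteasome gene tested, infarcted over uninjured, with its standard error (bars), ordered within its role. Filled points are the 13 genes called lower, the dashed line is the median of all genes tested (0.02) and the dotted line that of the proteasome genes (-0.50).

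The difference rested in part on uninjured replicate 2. Across the 44 members, uninjured replicate 2 exceeded uninjured replicate 1 by a median of 0.37 on the log2 scale, and by 0.05 across all genes tested, while infarcted replicate 1 differed from infarcted replicate 2 by a median of -0.07. Without uninjured replicate 2 the median of the members was -0.31, 41 of 45 tested were below 0 and edgeR called 0, with 11 at an unadjusted p below 0.05, where edgeR called 0.056% of all genes lower. DESeq2 then called 1 member, Psme1, and 4.21% of all genes lower. Without infarcted replicate 1 DESeq2 called 2 members, Psme1 and Psmg2 (8.16% of all genes), and without infarcted replicate 2 it called Psmb7 and Psme1 (6.01% of all genes). At an adjusted p below 0.01 in edgeR with all libraries Psme1 and Psmg2 were called, and 6.93% of all genes. Without uninjured replicate 1 edgeR called 20 members lower (12.7% of all genes), with a median of -0.64. Without infarcted replicate 1 it called 5 (11.5% of all genes), and without infarcted replicate 2 it called 3, Psmb7, Psme1 and Psmg2 (8.83% of all genes). The members' medians were -0.51 and -0.55 in those 2 fits.

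Proteasome transcripts are short, and short transcripts as a class were lower in infarcted hearts. The median principal transcript of the members had 1435 nucleotides, that of all genes tested 3046. Among all genes with transcripts of up to 1000 nucleotides the median log2 fold change was -0.56 and 38.6% were called lower, and from there to 1500 nucleotides the values were -0.38 and 30.7%. The members in these classes had medians of -0.64 and -0.53, with 3 of 8 and 8 of 15 called. For longer transcripts, up to 2000 and up to 3000 nucleotides, members had medians of -0.42 and -0.31, with 1 of 10 and 1 of 8 called. All genes in these classes had medians of -0.19 and -0.06, with 20.9% and 15.1% called lower. The 3 members over 3000 nucleotides had a median of -0.07, with 0 called. All such genes had a median of 0.18, with 7.76% called lower. In each class the members thus had the lower median. Their share called lower was above that of all genes only between 1000 and 1500 nucleotides. The difference of uninjured replicate 2 over replicate 1 followed length too, with a median of 0.46 for all genes up to 1000 nucleotides and -0.10 for those over 3000. With a smooth trend of each library with transcript length removed, the members' median was -0.19, 37 of 44 were below 0, and 3 were called lower, Psme1 (-0.46 ± 0.14, adjusted p = 0.0411), Psmg2 (-0.56 ± 0.17, adjusted p = 0.0400) and Psmd9 (-0.58 ± 0.17, adjusted p = 0.0310), where 13.7% of all genes were called lower. None of the core or cap genes was then called, though Psmb7 and Psmc2 were when the longest transcript gave the length. The longest transcripts of these genes have 2849 and 3466 nucleotides, and their principal ones 1160 and 1785. With the principal transcript Psmb7 and Psmb5 were at -0.35 ± 0.14 and -0.21 ± 0.14 (adjusted p = 0.0920 and 0.277), and 6 members had an unadjusted p below 0.05. Whether length or RNA quality takes part in the fall of these genes was not tested.

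**Figure D4:**
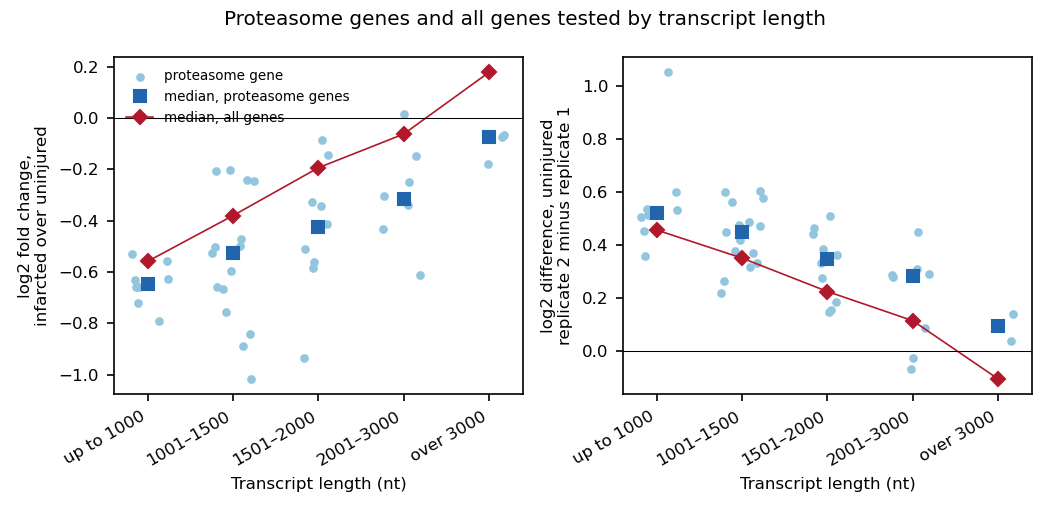
Proteasome genes (light points), their medians (squares) and the medians of all genes tested (diamonds) by transcript length class. The left panel gives the log2 fold change, infarcted over uninjured, and the right panel the log2 difference of uninjured replicate 2 minus replicate 1, with all genes up to 1000 nucleotides at -0.56 and 0.46.

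The scale also matters. When library totals alone set the scale, the median of all genes moved to 0.36, the members' median was -0.15, or -0.51 relative to all genes, and 2 members, Psme1 and Psmg2, were called lower, where 5.65% of all genes were. Then 27 members were below 0 and 17 above.

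**Figure D5:**
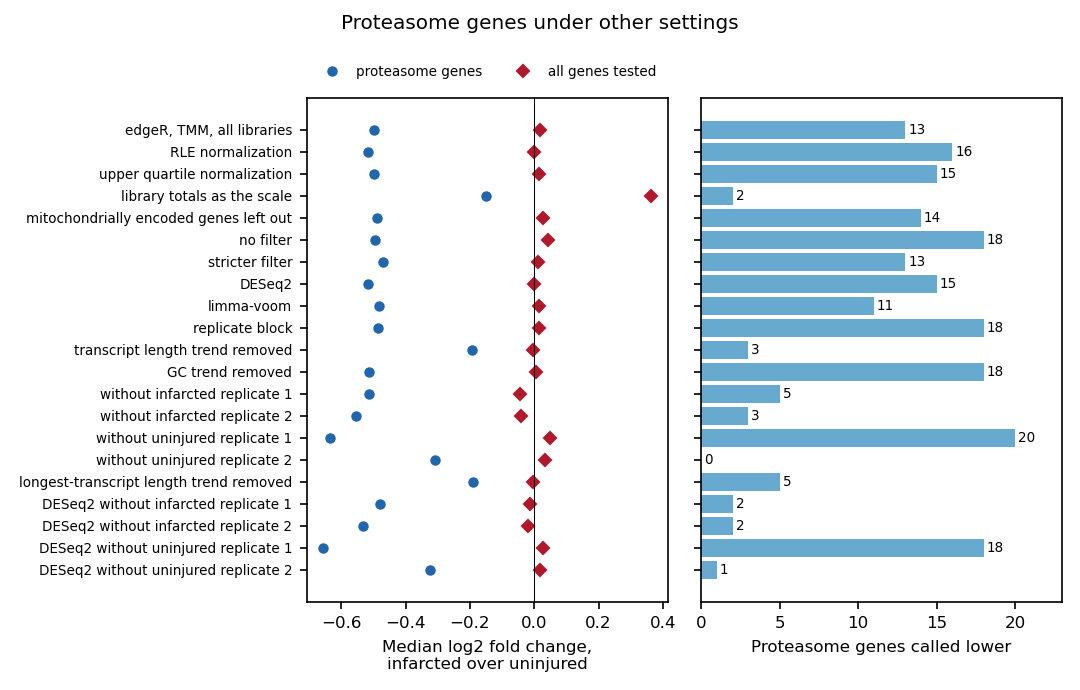
Median log2 fold change of the proteasome genes (circles) and of all genes tested (diamonds), infarcted over uninjured, and the number of proteasome genes called lower (bars) under each setting. The number runs from 0 without uninjured replicate 2 to 20 without uninjured replicate 1, and was 13 with edgeR, TMM and all libraries.

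Other genes of the pathway were read from lists of partners, of regulators around NFE2L1, of ubiquitin and its shuttles, and of the inducible beta subunits, 34 genes in all. Of these 3 fell and 2 rose, and their median log2 fold change was -0.18. Both shares lie below those of all genes, 14.6% lower and 18.3% higher. The 3 that fell are among 12 partners outside the symbol rule (median -0.37). Pomp, the chaperone that completes the beta ring, had 32.7 and 34.2 CPM in infarcted hearts, against 43.2 and 64.3 CPM in uninjured hearts (-0.68 ± 0.21, adjusted p = 0.0248). Sem1, a small cap subunit, had 49.2 and 52.4 CPM in infarcted hearts, against 65.8 and 94.5 CPM in uninjured hearts (-0.66 ± 0.21, adjusted p = 0.0265). With the length trend removed neither Pomp (-0.40, adjusted p = 0.0874) nor Sem1 (-0.35, adjusted p = 0.116) was called. Ecpas, a proteasome scaffold with a long transcript of 7045 nucleotides, had 124.7 and 118.1 CPM in infarcted hearts, against 177.7 and 193.2 CPM in uninjured hearts (-0.61 ± 0.19, adjusted p = 0.0280), and was lower still with the length trend removed (-0.91, adjusted p = 0.00771). Zfand5, a proteasome activator induced in muscle wasting, was not called, at -0.45 ± 0.19 (adjusted p = 0.0798), but was called lower with the length trend removed, at -0.73. Zfand5 had 69.7 and 62.2 CPM in infarcted hearts, against 94.7 and 85.6 CPM in uninjured hearts. Both infarcted libraries thus lay below both uninjured ones, as in 33.8% of all genes.

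Of 11 genes around NFE2L1 2 rose, a share near the 18.3% of all genes called higher, both small Maf proteins, which pair with NFE2L1 and NFE2L2 on DNA. Maff had 14.3 and 13.7 CPM in infarcted hearts, against 3.07 and 3.04 CPM in uninjured hearts, a log2 fold change of 2.20 ± 0.22 (adjusted p = 2.45e-05), and Mafk one of 1.03 ± 0.20 (adjusted p = 0.00236), with 38.0 and 52.5 CPM in infarcted hearts, against 22.6 and 21.7 CPM in uninjured hearts. Maff was also called without uninjured replicate 2 (2.18, adjusted p = 0.0477), where Mafk was not (0.99, adjusted p = 0.0947). Nfe2l1 itself had 420.9 and 471.5 CPM in infarcted hearts, against 475.8 and 578.1 CPM in uninjured hearts (-0.24 ± 0.22, adjusted p = 0.435). Nfe2l2 and Ddi2, the protease that activates NFE2L1, were not called, at 0.48 ± 0.21 and 0.34 ± 0.19 (adjusted p = 0.0998 and 0.189). The list's median was 0.21. Nfe2l2 had 92.8 and 66.0 CPM in infarcted hearts, against 62.4 and 51.7 CPM in uninjured hearts. Its infarcted libraries thus lay above both uninjured ones, as in 36.2% of all genes.

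The 9 ubiquitin and shuttle genes reported here had log2 fold changes between -0.39 and 0.53, with a median of 0.01. The highest was that of Uba6, the second ubiquitin-activating enzyme, which had 8.44 and 7.68 CPM in infarcted hearts, against 6.83 and 4.38 CPM in uninjured hearts, and was not called (0.53 ± 0.26, adjusted p = 0.132). The inducible subunits Psmb8 and Psmb10, which take the places of Psmb5 and Psmb7, were not called, at -0.32 ± 0.23 and -0.16 ± 0.23 (adjusted p = 0.313 and 0.635). Psmb10 had 24.9 and 31.8 CPM in infarcted hearts, against 25.1 and 38.1 CPM in uninjured hearts, and Psmb8 had 8.78 and 9.18 CPM in infarcted hearts, against 9.21 and 13.2 CPM in uninjured hearts. Psmb9 was not analysed here.

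Cell type markers moved with the groups. The 8 markers of heart muscle cells summed to 33260 and 30543 CPM in infarcted replicates 1 and 2, against 49502 and 60467 CPM in uninjured replicates 1 and 2, and 4 of 8 fell, where 14.6% of all genes did. Among the others Myh7, the fetal myosin heavy chain, went the other way without being called, at 4.15 ± 1.14 (adjusted p = 0.110). Myh7 had 344 and 1632 CPM in infarcted replicates 1 and 2, against 67.8 and 43.5 CPM in uninjured replicates 1 and 2. The 8 fibroblast markers summed to 8084 and 6525 CPM in infarcted hearts, against 855 and 821 CPM in uninjured hearts, with 5 called higher, where 18.3% of all genes were. The 8 macrophage markers summed to 310 and 328 CPM in infarcted hearts, against 111 and 83.5 CPM in uninjured hearts, and all 8 rose. Cell cycle markers rose in 5 of 6, and lymphocyte and endothelial markers in 0 of 5 and 0 of 6. Of 3 erythroid markers 2 fell. No marker was at 0 in all libraries, and the atrial genes Bmp10, Sln and Mybphl were at 0 in infarcted replicate 1, and Bmp10 in both uninjured libraries as well. In bulk tissue fewer cells of a type and less RNA per cell cannot be told apart, and the part of the cell makeup in the proteasome values was not tested.

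Splicing of the proteasome genes showed no called difference. Of 317 deposited events in member genes, 18 in 13 genes had enough reads in every library, 8 exons and 10 splice sites. A pair of Psma2 sites of different type count the same reads with the forms swapped, so they are 1 choice listed as 2 events. None was called, with adjusted p-values from 0.776 to 0.991, and none had an unadjusted p below 0.05, by edgeR or by limma on the logit. Of all 8375 events tested 0% were called by edgeR or limma, with 547 and 658 at an unadjusted p below 0.05. In 11 of the 18 events inclusion lay within 10 points of 0% or of 100% in all libraries. The smallest p belonged to an exon of Psme3 of 105 nucleotides (mm9, chr11:101178937-101179041), included at 98.6% and 91.0% in infarcted hearts, on 288 and 213 reads, against 99.2% and 98.8% in uninjured hearts, on 258 and 327 reads (adjusted p = 0.776), so that infarcted replicate 2 alone was lower. An exon of Psma3 of 119 nucleotides (mm9, chr12:72084311-72084429) was included at 85.4% and 90.9% in infarcted hearts, on 38 and 42 reads, against 95.3% and 96.2% in uninjured hearts, on 42 and 51 reads. Its groups did not overlap, with an adjusted p of 0.776. An exon of Psmb2 of 123 nucleotides (mm9, chr4:126361366-126361488) was included at 96.1% and 95.5% in infarcted hearts, against 99.0% and 97.0% in uninjured hearts (adjusted p = 0.808). The fourth, an exon of Psmd8 of 73 nucleotides (mm9, chr7:29964162-29964234), was included at 99.5% in both infarcted hearts, against 98.2% and 99.2% in uninjured hearts (adjusted p = 0.854).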

How the data were processed

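Gene counts were deposited by the authors as raw whole-number counts per Ensembl gene, not normalized, for 21552 genes. Percent inclusion of exons and percent use of splice sites were deposited for 124326 events, together with corrected read numbers for either form. The submitters' processing notes name mm9, on which splicing coordinates are given; the aligner, counter, annotation and strand use are not stated in them. Columns were tied to libraries by the names in the labels. Symbols were joined by identifier to GENCODE M21, which matched 20450 genes.

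Counts were tested in edgeR 4.0.16 (R 4.3.3) by its quasi-likelihood F-test, after TMM and filterByExpr and with robust dispersions and 2 residual degrees of freedom. The standard error is the absolute log2 fold change over the square root of F. The common coefficient of variation between libraries was 19.3%. Transcript length is that of the APPRIS principal transcript, or the longest where none is marked. Events needed 10 reads in each library and 5 of each form; corrected reads were rounded, mirrored sites of one event type and group were kept once, and the form-by-group interaction was tested in edgeR, or the logit, after adding 0.5 reads per form, in limma 3.58.1. DESeq2 1.42.0 was an alternative. Scripts were tested on simulated data.

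The members and lists were chosen with earlier results of these data known. Values in every library are given for the 3 members of each role with the smallest p, the members with the largest fall and the highest value, and up to 4 genes with the smallest p of each further list. Others named, such as Nfe2l1 and Psme4, were chosen after their values were seen. Paaf1 and Psmb9 were not matched. Some genes of the ubiquitin list are not reported here, and the counts and medians of that list and of all further pathway genes leave them out. Promoters are RefSeq's on GRCm38.p6. Removing the trend with the longest transcript and DESeq2 without each library were added after the data were seen.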

Additional observations from a re-analysis of the deposited data

How the results depend on the processing

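The members called lower numbered 13 with edgeR and all libraries. They numbered 2 with library totals as the scale (5.65% of all genes) and 3 with the transcript length trend removed (13.7% of all genes). With the trend on the longest transcript removed they numbered 5 (14.1% of all genes), and at an adjusted p below 0.01 they numbered 2 (6.93% of all genes). Leaving out 1 library gave 0 to 20 in edgeR, and in DESeq2 2 without infarcted replicate 1, 2 without infarcted replicate 2, 18 without uninjured replicate 1 (12% of all genes) and 1 without uninjured replicate 2. The members' median of -0.50 was -0.15, -0.19 and -0.19 under library totals and the 2 length trends. The replicate numbers are not said to pair animals, and same-numbered libraries deviated with a correlation of 0.108; with the replicate block 18 members were called lower (16.8% of all genes), the 13 among them.

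The further pathway genes called lower numbered 3; library totals and an adjusted p below 0.01 gave 0, leaving out 1 library 0 to 3 in edgeR, and DESeq2 without infarcted replicate 1, infarcted replicate 2 or uninjured replicate 2 gave 0. Those called higher numbered 2, Maff and Mafk. Library totals gave 7, but on that scale more of all genes were called higher as well. The median log2 fold change of all genes was then 0.36, so the 7 do not show a rise particular to the pathway. Without uninjured replicate 2 Maff and Mafk were at 2.18 and 0.99 in edgeR. Mafk was lower still without infarcted replicate 2.

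Among genes not called, the sign turned with library totals for Psme3 (0.20), Psmb8 (0.029), Psmb10 (0.20) and 2 genes of the ubiquitin list (0.029 and 0.003). Psmb10 also turned with the 2 length trends removed (0.22 and 0.23) and without uninjured replicate 2 in edgeR and DESeq2 (0.17 and 0.15), its edgeR values without 1 library running from -0.434 to 0.169. Psmd11 turned with RLE factors and with DESeq2 (both -0.002), with the length trend (-0.001) or GC trend (-0.027) removed, and in DESeq2 without infarcted replicate 2 (-0.056) and uninjured replicate 2 (-0.021), and ran from -0.079 to 0.021 in edgeR without 1 library. Splicing events of members called remained 0 under each setting. The cause of these changes was not tested. With 2 libraries a group the precision is limited, and Psma5, Psma8 and Psme2 rest on 15 to 61 counts a library.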
